A study of Homo sapiens with 6 samples.

Results

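The mRNAs of the translation initiation and elongation factors were described in T24 cells, a human bladder cancer cell line, after silencing of RBM3. The genes were those of the count table annotated as protein coding whose symbol starts with EIF or EEF, together with ETF1, GSPT1, PABPC1 and PABPC4 and without EIF2AK2. Of 73 such rows, 61 had a mean of at least 1 CPM (the count of a gene relative to the library total scaled by its TMM factor) over the 6 libraries and were kept. All 61 also passed the filter on low counts. The whole table held 63677 rows, of which 15099 genes were tested.

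Proteins were not measured, and the values are counts of polyadenylated RNA per gene in bulk samples, in which fewer cells of a kind and less RNA per cell cannot be told apart. The 3 control libraries (replicates 1, 3 and 5) came from T24 cells given a non-targeting siRNA, and the 3 siRBM3 libraries (replicates 3, 4 and 5) from T24 cells given siRNA against RBM3. In both groups cells were exposed to the siRNA at 25 nM during a transfection of 4.5 h. T24 is a single line, so the libraries are repeat samples of 1 line, and the p-values measure the spread between these samples, which may be technical. RBM3 encodes a cold-inducible RNA-binding protein. Its level was 225, 368 and 301 CPM in the control libraries and 54.1, 90.1 and 58.4 CPM in the siRBM3 libraries, a log2 difference of -2.14 (SE 0.24). The groups did not overlap, and the exact two-sided permutation test gave p = 0.1, the smallest that 3 libraries against 3 allow.

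The libraries held 23603992 to 45098612 counts. Mitochondrial transcripts took 1.63 to 2.86% of the control counts and 2.32 to 9.40% of the siRBM3 counts, with the highest share in siRBM3 replicate 3, and their part in the results was not tested. Of 15 urothelial and epithelial markers, 8 reached 1 CPM. The 15 summed to 5159 to 6361 CPM in control and 3964 to 4662 CPM in siRBM3 libraries. KRT7 had the largest share of this sum, with means of 3222 and 2396 CPM. KRT8, KRT18, KRT19 and PPARG also had a lower mean in siRBM3 libraries. GATA3 (10.9 and 13.6 CPM), EPCAM (5.57 and 6.35 CPM) and UPK2 (1.45 and 1.77 CPM) had a higher one. KRT5, KRT20, CDH1, TP63, UPK1A, UPK1B and UPK3A were under 1 CPM. The 3 mesenchymal markers VIM, CDH2 and FN1 were all present, summing to 22678 to 25121 CPM in control and 25892 to 28095 CPM in siRBM3 libraries. Unlike the CPM of the factors, all marker values in this paragraph are relative to the library total without the TMM factor. Of 4 leukocyte markers only CD14 passed 1 CPM, with a highest value of 2.80 CPM, HBB was at 0, and the endothelial gene CDH5 reached 36.8 CPM.

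Translation begins when eIF2 carries the initiator tRNA to the small ribosomal subunit, with eIF1, eIF1A, eIF3 and eIF5. The eIF4F complex, made of the cap-binding protein eIF4E, the scaffold eIF4G and the helicase eIF4A, brings that subunit to the capped mRNA. The 4E-BPs, substrates of the kinase mTORC1, compete with eIF4G for eIF4E, while phosphorylation of eIF2 blocks its recycling by eIF2B in the integrated stress response. During elongation eEF1A delivers aminoacyl-tRNA and eEF2 moves the ribosome along the mRNA, and the release factors eRF1 and eRF3 end synthesis. Many mRNAs of the translation machinery begin with a 5′ terminal oligopyrimidine (TOP) tract, through which mTORC1 is known to control their translation.

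TOP tracts were therefore looked for first, in the start sites of RefSeq on GRCh38.p14. A start was called TOP-like when the first base was C and at least the next 4 bases were C or T. Of the 61 genes, 47 had at least 1 start in the table, and 12 of these (25.5%) had a TOP-like one, against 7.31% of the 10780 tested genes with a start and 4.07% of all 35116 starts. The 12 were EEF1A1, EEF1B2, EEF2, EIF2A, EIF2D, EIF2S3, EIF3D, EIF3F, EIF3K, EIF3M, EIF4A2 and EIF4B. The start windows of 4 of them and of EIF4E and EIF4EBP2, which did not match, are shown because the results below turn on these genes. Each window runs from 10 bases before the start to 20 bases from it, on the strand of the gene, with the run of C and T that begins at the start in capitals.
EEF1A1, chr6:73521013-73521042, minus strand: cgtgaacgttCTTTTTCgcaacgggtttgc
EEF2, chr19:3985444-3985473, minus strand: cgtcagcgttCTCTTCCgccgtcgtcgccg
EEF1B2, chr2:206159885-206159914, plus strand: ctcttcgggtCCTTTTTCCTCTCTTCagcg
EIF4B, chr12:53006446-53006475, plus strand: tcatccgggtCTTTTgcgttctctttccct
EIF4E, chr4:98929114-98929143, minus strand: tggagcggttgtgcgatcagatcgatctaa
EIF4EBP2, chr10:70404135-70404164, plus strand: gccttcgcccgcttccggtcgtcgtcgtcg
The tract of EEF1B2 ran over 16 bases and that of EIF4B over 5. The match describes letters at an annotated start, and the starts used in T24 cells were not measured.

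Most translation factor mRNAs differed little between the groups. Of the 61, 29 were higher and 32 lower in siRBM3 libraries, the median log2 fold change was -0.01 against -0.01 over all tested genes, and 50 lay within 0.25 of 0 on the log2 scale. The median size of the log2 fold change was 0.11, against 0.17 over all tested genes, and the median standard error was 0.12 against 0.17. For 47 genes the 95% interval of the log2 fold change lay within 0.58 of 0, the size of a 1.5-fold change. Together the 61 genes took 1.81 to 1.94% of the counts of each library. The exceptions on the upper side were led by EIF4EBP2, which encodes an inhibitor of eIF4E, and on the lower side by EIF5AL1, a near copy of the gene for eIF5A.

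Calls needed both an FDR below 0.01 and a 1.5-fold difference or more. The quasi-likelihood test of edgeR called 0 of the 61 genes, and also 0% of all tested genes in either direction. RBM3, the silenced gene, was itself not called, at an edgeR FDR of 0.0822, so 0 calls do not show that the factors were unchanged. At an unadjusted p under 0.05 there were 3 higher genes, EIF4EBP2, EIF4B and EIF5B, where the share over all tested genes was 6.56%, and 6 lower genes, EIF5AL1, EIF2B3, EEFSEC, EIF4A3, EIF5A2 and EIF2B5, where it was 6.58%. DESeq2 called 1 gene, EIF4EBP2, against 0.643% of genes called higher and 0.574% called lower, and limma-voom called 0. EIF4EBP2 was also the 1 factor at an edgeR FDR under 0.1, where 0.338% of all tested genes were higher. With the replicate number as a block in edgeR it was again the 1 call, against 0.96% of genes called higher and 1.26% called lower. The siRBM3 values lay wholly above the control values for 5 genes (9.98% over all tested genes) and wholly below them for 8 (9.93%). Fits that leave out 1 library have less power, and in them the count of lower genes at p under 0.05 varied. It was 10 without control replicate 1, 2 without control replicate 5, and 3 without siRBM3 replicate 3 or 5, while the higher count was 1 without siRBM3 replicate 3. The shares over all tested genes were not computed for these fits.

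**Figure D1:**
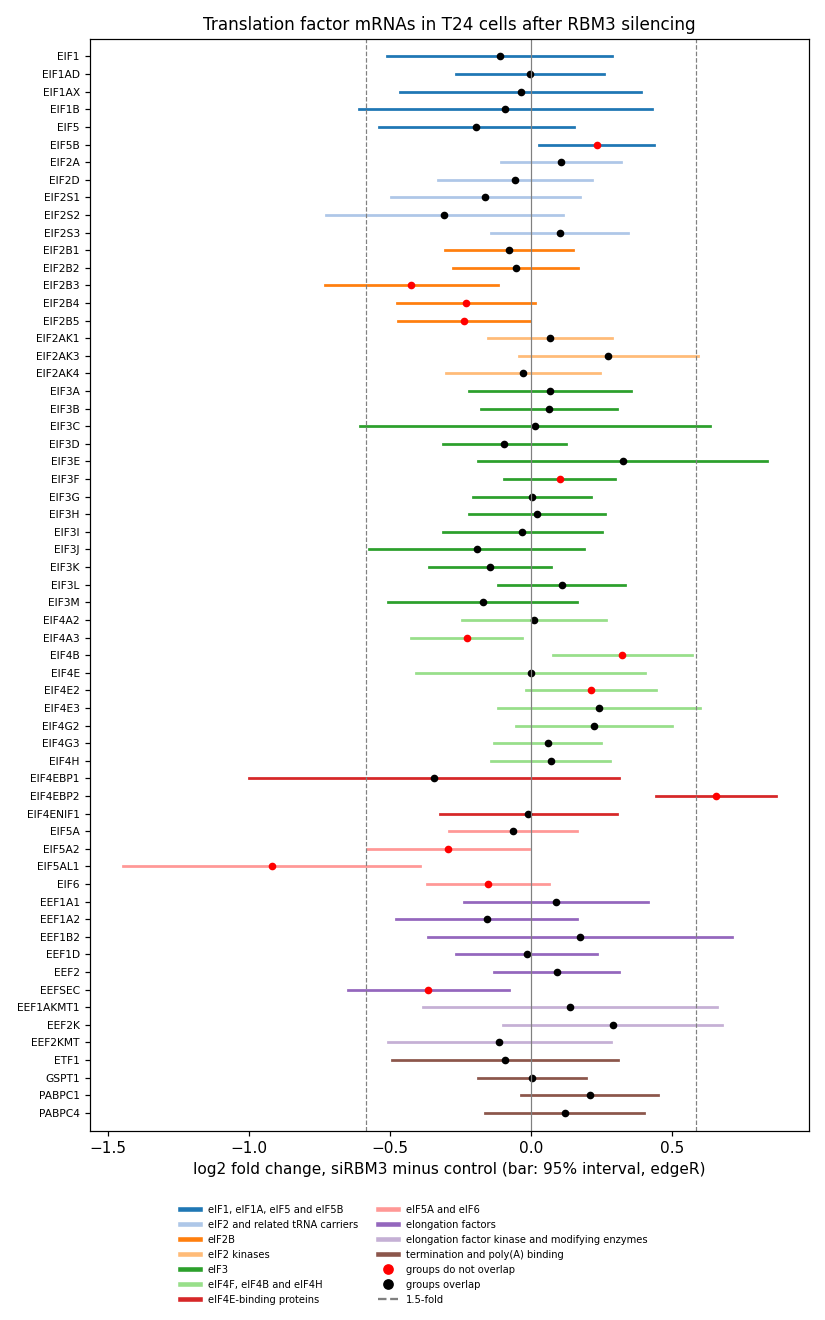
The log2 fold change of each of the 61 genes (points) with its 95% interval from edgeR (bars, coloured by role), siRBM3 minus control, with 3 libraries a group. Red points mark the 13 genes whose groups did not overlap, dashed lines mark 1.5-fold, and EIF4EBP2 at 0.66 and EIF5AL1 at -0.92 lie farthest from 0.

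The genes for the binding proteins of eIF4E did not share a direction. EIF4EBP2 (ENSG00000148730, chr10:72163901-72188374 on GRCh37) stood at 75.3, 69.6 and 77.1 CPM in the control libraries and at 123.0, 110.6 and 116.0 CPM in the siRBM3 libraries. Every siRBM3 value was above every control value, and the gap between the groups was wider than the spread within either. The log2 fold change was 0.66 (SE 0.09, 95% interval 0.44 to 0.87), which is 1.58-fold, with an FDR of 0.0822 in edgeR, 0.0868 in limma-voom and 9.1e-06 in DESeq2. It ranked 14 by p among the 15099 genes, and without any 1 library its log2 fold change stayed between 0.61 and 0.69, with an edgeR FDR between 0.0508 and 0.341.

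EIF4EBP1, which encodes the best known 4E-BP, read 44.9, 83.9 and 75.3 CPM in control and 73.6, 45.8 and 41.2 CPM in siRBM3 libraries. Control replicate 1 was low and siRBM3 replicate 3 high, so the groups overlapped, and the log2 fold change was -0.34 (SE 0.28, FDR 0.656 in edgeR). Its highest control library was 1.87 times its lowest, the widest range within the control group among the 61 genes. EIF4ENIF1, encoding the eIF4E transporter 4E-T, stood at 30.4 ± 4.68 CPM in control and 30.2 ± 2.19 CPM in siRBM3 libraries (SD, n = 3 each). The third 4E-BP gene, EIF4EBP3, was listed at 0 in all libraries.

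EIF4E itself was measured at 19.7, 30.6 and 26.5 CPM in control and at 29.1, 23.0 and 24.7 CPM in siRBM3 libraries. The siRBM3 values lay inside the control range, with a log2 fold change of -0.00 and a 95% interval from -0.41 to 0.41, and its sign turned under other settings. Per kilobase of annotated exon, EIF4EBP2 was 2.53, 1.51 and 1.93 times EIF4E in the control libraries and 2.81, 3.20 and 3.12 times in the siRBM3 libraries. These ratios did not overlap, and their means stood 1.53 times apart, or between 1.36 and 1.77 times when 1 library was left out. With the length of the canonical transcript the mean ratio was 0.972 in control and 1.49 in siRBM3 libraries, so whether EIF4EBP2 was above or below EIF4E in control cells depends on the length used.

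EIF4EBP1 was the more abundant binding protein mRNA per length, at 14.8 ± 1.69 times EIF4E in control and 11.7 ± 2.46 times in siRBM3 libraries (SD, n = 3), or 7.69 and 6.06 times by the canonical transcript. EIF4EBP1 and EIF4EBP2 summed to 16.8 ± 1.30 times EIF4E in control and 14.7 ± 2.29 times in siRBM3 libraries, and the groups overlapped. The ratio of EIF4EBP2 to EIF4EBP1 was 0.197, 0.0975 and 0.120 in control and 0.196, 0.283 and 0.331 in siRBM3 libraries, where control replicate 1 and siRBM3 replicate 3 nearly met. Protein and phosphorylation were not measured in these libraries.

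**Figure D2:**
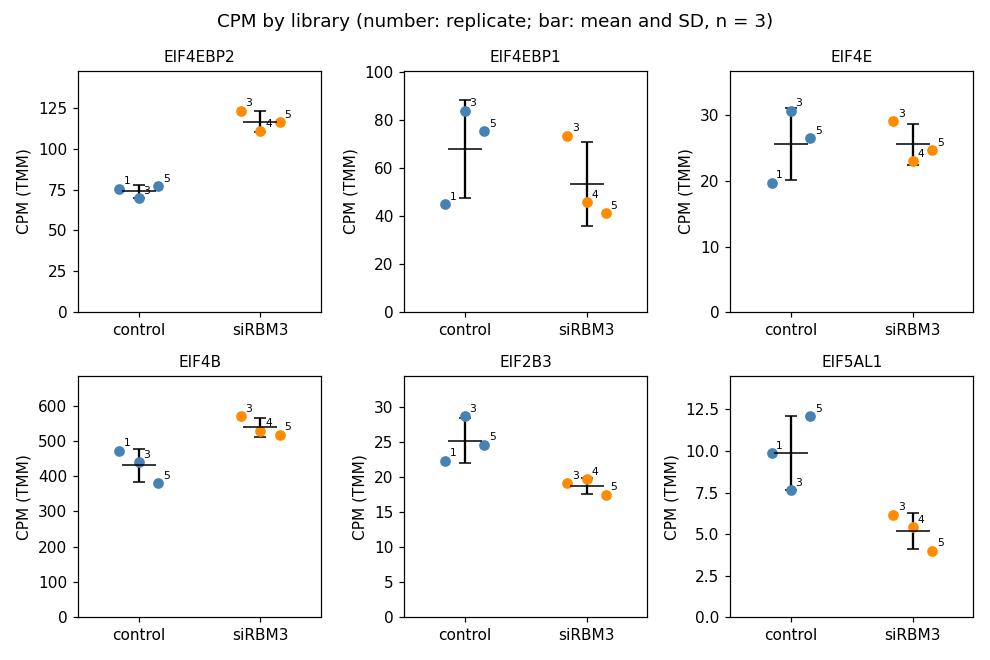
CPM (linear axis from 0) of 6 translation factor genes in each library, with the replicate number beside each point and the mean and SD of 3 libraries as bars. EIF4EBP2 and EIF4B are higher and EIF2B3 and EIF5AL1 lower in every siRBM3 library, whereas EIF4EBP1 and EIF4E overlap.

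Of 9 genes for eIF4F subunits, their helpers and their relatives, 7 were higher and 2 lower, with a median log2 fold change of 0.07. When only library size was used for scaling, 6 were higher. The relatives were EIF4A3, EIF4G2, EIF4E2 and EIF4E3. Among the subunits and helpers themselves, EIF4E stood at -0.00, EIF4A2 at 0.01, EIF4G3 at 0.06, EIF4H at 0.07 and EIF4B at 0.32. EIF4B, whose product stimulates the helicase eIF4A, stood at 473, 439 and 380 CPM in control and at 570, 528 and 518 CPM in siRBM3 libraries. The groups did not overlap, and the log2 fold change was 0.32 (SE 0.11) with an edgeR FDR of 0.266. EIF4E2, encoding the cap-binding homologue 4EHP, also lay above the control range in every siRBM3 library, at 70.3 ± 6.56 against 81.4 ± 2.54 CPM, with a log2 fold change of 0.21 (SE 0.10, unadjusted p = 0.0674 in edgeR). EIF4G2, the most abundant gene of the group per length, encodes DAP5, an eIF4G relative that lacks the eIF4E-binding part. It read 1119 ± 123 CPM in control and 1305 ± 132 CPM in siRBM3 libraries, and the groups overlapped.

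In the other direction, EIF4A3, the helicase of the exon junction complex, was at 103.2, 104.2 and 103.2 CPM in control and at 85.0, 93.1 and 87.0 CPM in siRBM3 libraries. All 3 siRBM3 values were lower, with a log2 fold change of -0.23 (SE 0.09) and an edgeR FDR of 0.315. EIF4A2, a helicase of eIF4F itself, differed by 0.01 on the log2 scale, EIF4G3 by 0.06 and EIF4H by 0.07. EIF4E3, a weakly expressed eIF4E relative at 7.69 ± 0.608 CPM in control, was at 9.10 ± 0.972 CPM in siRBM3 libraries.

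The best known scaffold and helicase could not be read. EIF4G1 (ENSG00000114867) and EIF4A1 (ENSG00000161960) were listed at 0 counts in all 6 libraries, as were EEF1G, EEF1E1 and EIF4EBP3, although EIF4G1, EIF4A1 and EEF1G are used by nearly every cell. A count of 0 allows up to 0.0665 to 0.127 CPM (3 counts of each library's total, counting error only). The share of exon bases that lies in another gene on the same strand was 99.7% for EEF1G, 73.2% for EIF4EBP3, 47.4% for EIF4A1, 18.8% for EEF1E1 and 0% for EIF4G1. Over the whole table, 50.7% of 339 protein-coding rows with over 90% of their exon bases shared were at 0 in all libraries, against 12.8% of 16657 rows with none shared. Why EIF4G1 was at 0 was not tested, and nothing is said here of its expression.

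All 5 subunit genes of eIF2B, which reloads eIF2 with GTP, were lower in siRBM3 libraries, with a median log2 fold change of -0.23. All 5 stayed lower with RLE factors and with library size only. These scalings moved the median of all tested genes down, from -0.008 to -0.011 and -0.059, so they could hardly have turned lower genes. With the replicate number as a block all 5 were lower, with a median of -0.21. EIF2B3, encoding the gamma subunit, read 22.3, 28.7 and 24.6 CPM in control and 19.2, 19.7 and 17.5 CPM in siRBM3 libraries. Its log2 fold change was -0.43 (SE 0.13) with an edgeR FDR of 0.247. EIF2B5, encoding the catalytic epsilon subunit, read 43.5, 38.7 and 44.3 CPM in control and 35.4, 36.3 and 35.5 CPM in siRBM3 libraries, a log2 fold change of -0.24 (SE 0.10, FDR 0.372 in edgeR). EIF2B4, for the delta subunit, lay below the control range as well, at -0.23 on the log2 scale. EIF2B1 and EIF2B2, for the alpha and beta subunits, overlapped between the groups at -0.08 and -0.05. None of the 5 passed the adjusted threshold, and the genes of 1 complex are not replicates of each other.

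The 3 subunit genes of eIF2 itself did not share a direction. EIF2S2, for the beta subunit, stood at 248, 382 and 392 CPM in control and at 318, 260 and 247 CPM in siRBM3 libraries, where the low value of control replicate 1 fell among the siRBM3 values. Its log2 fold change was -0.31 (SE 0.18), that of EIF2S1 for the phosphorylated alpha subunit was -0.16, and that of EIF2S3 for the gamma subunit was 0.10. EIF2A and EIF2D, which can deliver tRNA without eIF2, stood at 0.10 and -0.06. Of the eIF2 kinases, EIF2AK3 (PERK, which responds to stress of the endoplasmic reticulum) had the widest difference, 18.1 ± 2.42 against 21.9 ± 1.56 CPM with overlapping groups. EIF2AK1 (HRI, the heme-regulated kinase), the most abundant per length, was at 168 and 176 CPM with overlapping groups, and EIF2AK4 (GCN2, which senses uncharged tRNA) differed by -0.03 on the log2 scale.

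Among the other factors of start-site selection and subunit joining, EIF5B stood apart. EIF5B, whose product joins the large subunit, was at 168, 163 and 186 CPM in control and at 203, 207 and 197 CPM in siRBM3 libraries, a log2 fold change of 0.23 (SE 0.09, FDR 0.322 in edgeR). The remaining 5 genes were slightly lower with overlapping groups. EIF1, the most abundant of them, read 538, 778 and 819.5 CPM in control and 764, 631 and 581 CPM in siRBM3 libraries, so that control replicate 1 held the lowest value of all. EIF5, whose product triggers GTP hydrolysis by eIF2, was at -0.19 on the log2 scale (SE 0.15).

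The 13 genes of eIF3, the large scaffold on the small subunit, were 8 higher and 5 lower, with a median log2 fold change of 0.01, and the split was 5 higher and 8 lower with library size only. None reached an unadjusted p under 0.05 in edgeR. EIF3K was the one with the smallest p, 0.159, at 138 ± 11.9 CPM in control and 125 ± 2.57 CPM in siRBM3 libraries. EIF3F lay wholly above the control range, but by only 0.10 on the log2 scale. EIF3E had the largest log2 fold change of the group, 0.32 (SE 0.22), and ranged from 288 to 527 CPM within the siRBM3 libraries. EIF3L, the most abundant eIF3 gene per kilobase of annotated exon at 87.1 RPKM, differed by 0.11 on the log2 scale. Over the canonical transcript EIF3I was the most abundant, at 199 RPKM against 140 for EIF3L. EIF3C was at 2.81 CPM in both groups, while its near-identical copy EIF3CL had at most 1 count. Reads that fit both copies may not have been counted, so the level of EIF3C is uncertain.

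**Figure D3:**
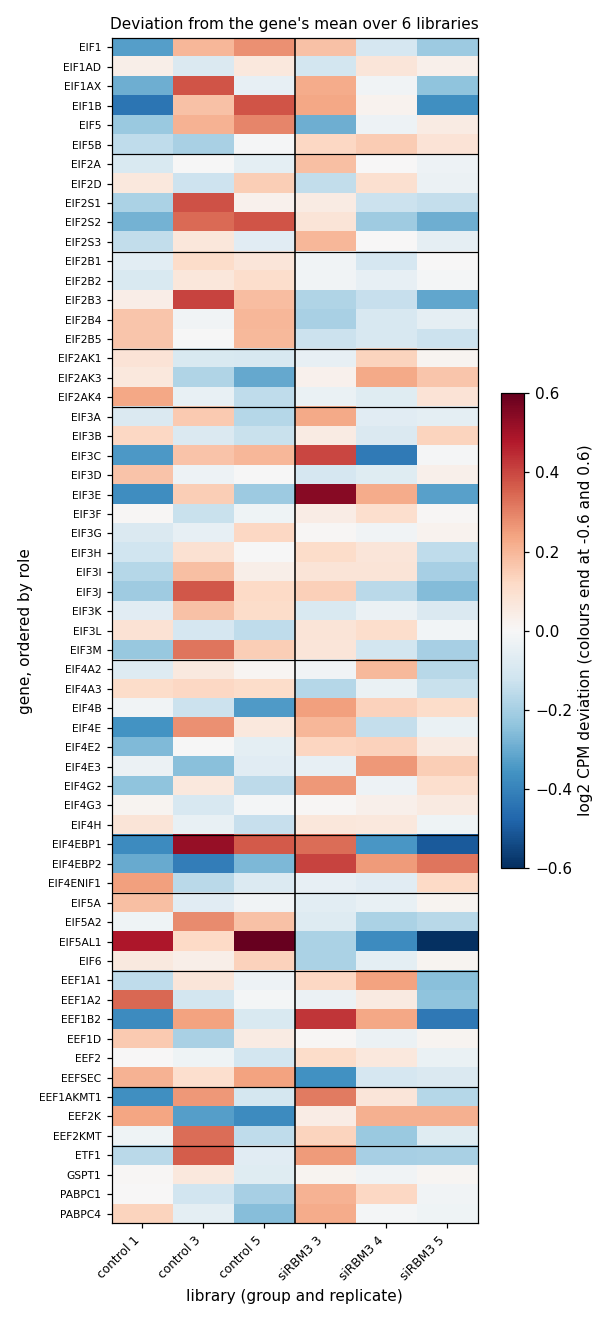
The log2 CPM of each of the 61 genes in each library, as the deviation from that gene's mean over the 6 libraries (red above, blue below), with genes ordered by role. Control replicate 3 held the highest value of 15 genes and siRBM3 replicate 3 that of 14, and EIF4EBP2 is one of the few rows whose colour changes cleanly between the groups.

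The 4 eIF5A and eIF6 genes were lower, with a median log2 fold change of -0.22. They stayed lower with RLE factors and with library size only, which move all genes down and so could hardly have turned them. EIF5A was slightly higher with the replicate number as a block (0.020) and without control replicate 1 (0.011), which left 3 lower genes under the block. EIF5A, which encodes the factor that helps ribosomes through difficult peptide bonds, was at 661 ± 61.2 CPM in control and 631 ± 17.6 CPM in siRBM3 libraries, a log2 fold change of -0.07 (SE 0.10). EIF5A2, its paralogue, read 21.2, 26.3 and 24.4 CPM in control and 20.4, 18.9 and 19.2 CPM in siRBM3 libraries, at -0.29 on the log2 scale (SE 0.13, FDR 0.369 in edgeR). EIF6, which keeps the large subunit from joining too early, also lay below the control range, at 88.7 ± 3.28 against 79.8 ± 5.68 CPM.

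EIF5AL1 (ENSG00000253626, chr10:81272289-81276196 on GRCh37) had the largest difference of the 61 genes. It read 9.86, 7.65 and 12.1 CPM in control and 6.17, 5.41 and 3.99 CPM in siRBM3 libraries, and the log2 fold change was -0.92 (SE 0.23, 95% interval -1.45 to -0.39). The FDR was 0.175 in edgeR and 0.0106 in DESeq2, just outside the threshold. Its ratio to EIF5A per length was 0.0103 ± 0.00243 in control and 0.00567 ± 0.00134 in siRBM3 libraries (SD, n = 3), without overlap. Because its sequence is close to that of EIF5A, which was far more abundant, reads may be split between the copies and its level is uncertain.

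EEF2 and EEF1A1 were the most abundant genes of the list per length, and both overlapped between the groups. EEF2 read 2640, 2585 and 2438 CPM in control and 2846, 2750 and 2560 CPM in siRBM3 libraries, which overlapped, with a log2 fold change of 0.09 (SE 0.10, 95% interval -0.13 to 0.31). EEF1A1, the main eEF1A gene, was at 3505 ± 271 and 3722 ± 637 CPM, and EEF1A2, its tissue-restricted paralogue, at 106 ± 18.3 and 95.3 ± 9.74 CPM. EEF1D, for a subunit of the eEF1B exchange factor, differed by -0.02 on the log2 scale. EEF1B2, for another subunit, ranged from 239 to 433 CPM within the siRBM3 libraries, a 1.81-fold range that exceeded the difference between the groups.

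The one elongation factor gene without overlap was EEFSEC, which delivers selenocysteine. It read 26.2, 24.4 and 26.8 CPM in control and 17.6, 21.2 and 21.4 CPM in siRBM3 libraries, with a log2 fold change of -0.36 (SE 0.13) and an edgeR FDR of 0.277. EEF2K, the kinase that inhibits eEF2, read 55.5, 37.5 and 36.3 CPM in control and 48.7, 54.7 and 54.7 CPM in siRBM3 libraries. Only control replicate 1 reached the siRBM3 range, and the log2 fold change was 0.29 (SE 0.17), or 0.51 without that library and 0.18 without control replicate 5. The methyltransferase genes EEF1AKMT1 and EEF2KMT differed by 0.14 and -0.11.

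Both release factor genes overlapped between the groups. GSPT1, for eRF3a, was at 270 ± 12.9 and 271 ± 4.07 CPM, with a 95% interval of the log2 fold change from -0.19 to 0.20. ETF1, for eRF1, was at -0.09 on the log2 scale, with a wider 95% interval from -0.49 to 0.31. PABPC1, the main cytoplasmic poly(A)-binding protein, read 1551, 1432 and 1350 CPM in control and 1787, 1689 and 1525 CPM in siRBM3 libraries. Control replicate 1 fell inside the siRBM3 range, and the log2 fold change was 0.21 (SE 0.11, FDR 0.456 in edgeR). PABPC4, its inducible relative, was at 0.12.

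The levels of the genes spanned orders of magnitude, and were compared only per length, as RPKM. Over all annotated exons EEF2 was highest at 656 RPKM, followed by EEF1A1 at 359 and EIF5A at 241, whereas over the canonical transcript EEF1A1 led at 1029, followed by EEF2 at 835 and PABPC1 at 544. The lowest were EIF3C and EIF4E3, at 0.406 and 0.777 RPKM over all exons. EIF4E, at 5.15 RPKM, was far below EIF4A2, for a helicase of eIF4F, at 62.8. It was also far below EIF4G2, whose product lacks the eIF4E-binding part, at 143. The genes of eIF2B ranged from 5.41 to 12.5 RPKM, below the eIF2 subunit genes at 23.8 to 120. Over the canonical transcript the eIF2B genes ranged from 11.6 to 25.0 RPKM and the eIF2 subunit genes from 30.5 to 122, so the order of these groups did not depend on the length.

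**Figure D4:**
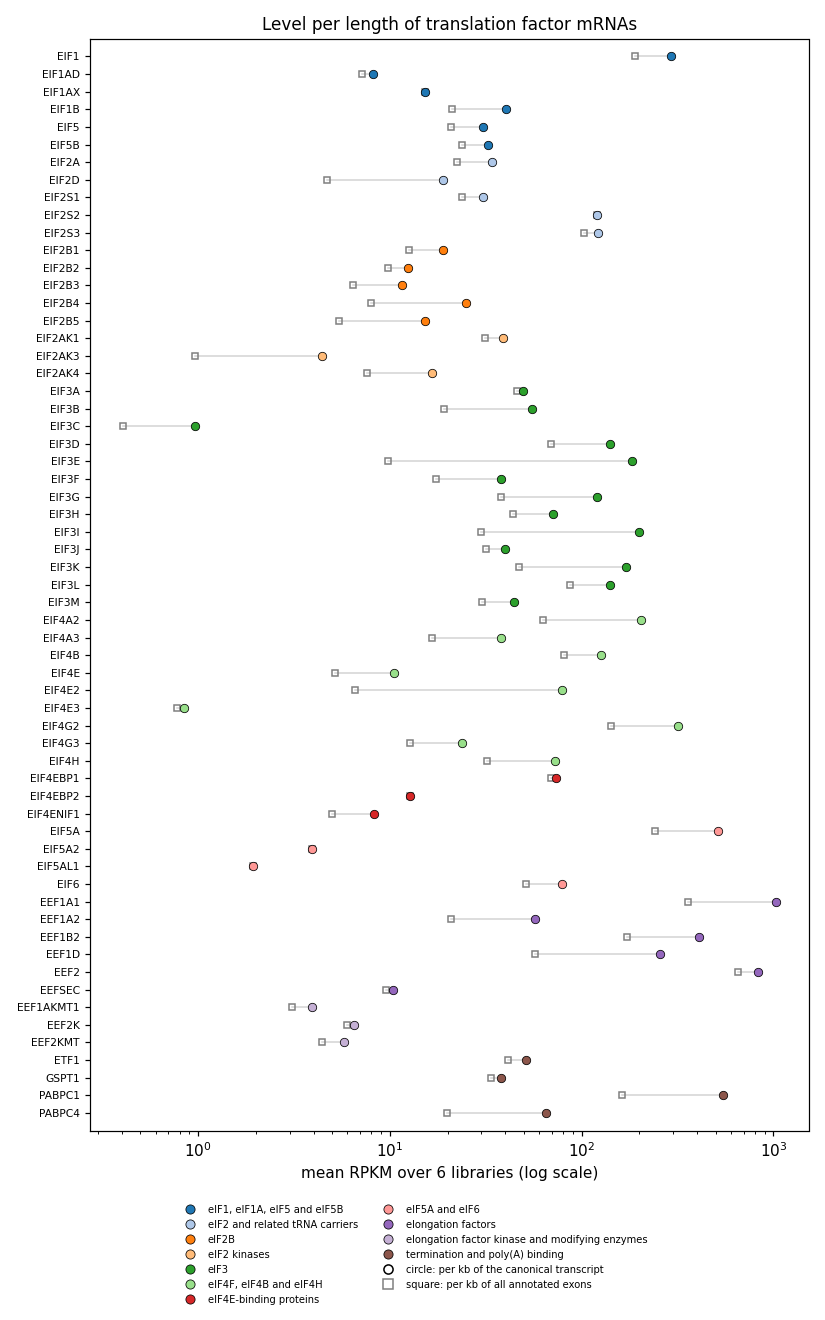
Mean level of each of the 61 genes over the 6 libraries in RPKM (log axis), per kilobase of all annotated exons (squares) or of the canonical transcript (circles, coloured by role). EEF2 and EEF1A1 lie at the top under both lengths, and EIF3E shifts most between them.

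By start sequence, the 12 genes with a TOP-like start had a median level of 133 RPKM over the canonical transcript, and the 35 with a start but no such tract a median of 23.7 RPKM. Of the TOP-like genes 8 were higher and 4 lower in siRBM3 libraries, with a median log2 fold change of 0.09. Of the other 35, 12 were higher and 23 lower, with a median of -0.04. With library size only the splits were 7 to 5 and 10 to 25. With the replicate number as a block the direction of the TOP-like genes turned, to 5 higher and 7 lower with a median of -0.05, and the other 35 were 15 higher and 20 lower. Among the TOP-like genes whose windows are printed above, EIF4B had the largest log2 fold change, while EEF1A1 and EEF2 stood near 0.09.

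Beyond the factors themselves, 65 genes that act on them or beside them were read, of which 62 were tested. The tests of edgeR, DESeq2 and limma-voom called 0 of them. At an unadjusted p under 0.05 in edgeR 1 was higher and 4 were lower, where the shares over all tested genes were 6.56% and 6.58%. With the replicate number as a block edgeR called 1 of them, TRMT6, against 0.96% of all tested genes called higher and 1.26% called lower. TRMT6, which with TRMT61A methylates the initiator tRNA among others, read 47.8, 61.0 and 54.1 CPM in control and 38.3, 37.1 and 37.6 CPM in siRBM3 libraries. The siRBM3 values were nearly equal and all below the control values, with a log2 fold change of -0.53 (SE 0.11), an edgeR FDR of 0.139 and a DESeq2 adjusted p of 0.0117. Under the block the log2 fold change was -0.60 with an edgeR FDR of 0.0079. TRMT61A stood at -0.33 with overlapping groups. The higher gene was DDX3X, an RNA helicase of initiation, at 0.35 on the log2 scale, which was named after its value was seen, as was TRMT61A.

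DOHH, the second enzyme of the pathway that makes the hypusine residue of eIF5A, read 15.3, 15.7 and 17.0 CPM in control and 10.2, 11.4 and 12.6 CPM in siRBM3 libraries. The groups did not overlap, and the log2 fold change was -0.49 (SE 0.14, FDR 0.210 in edgeR). DHPS, the first enzyme, was at -0.16 with overlapping groups. Of 12 genes of mTORC1 and its regulators, 6 were higher and 6 lower, with a median of 0.02, and MLST8, a shared subunit of the mTOR complexes, had the smallest p at -0.23 on the log2 scale (72.1 ± 3.84 against 61.4 ± 0.459 CPM). PDCD4, an inhibitor of eIF4A, stood at 0.19, with overlapping groups.

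Of 8 genes of the integrated stress response outside the list, 7 were lower, with a median log2 fold change of -0.33 and a range from -0.64 to 0.13, and all 8 overlapped between the groups. DDIT3, for the transcription factor CHOP, read 19.8 ± 3.70 CPM in control and 14.7 ± 2.20 CPM in siRBM3 libraries (log2 fold change -0.44, SE 0.18, FDR 0.350 in edgeR). Of 7 diphthamide enzyme genes, which modify eEF2, 5 were lower and 2 higher, with a median log2 fold change of -0.01. DPH7 had the smallest p, at -0.18 on the log2 scale, and the largest differences were those of the higher genes DPH6 (0.36) and DPH3 (0.22). METTL13, which methylates eEF1A, differed by -0.07, and TRMT112, a partner of the methyltransferase that modifies eRF1, by 0.24. The 9 mitochondrial translation factor genes had 4 higher and 5 lower, with MTRF1L, a mitochondrial release factor, at 0.27 and none at an unadjusted p under 0.05.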

How the data were processed

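Polyadenylated RNA of T24 cells was sequenced from stranded single-end libraries, 3 control and 3 siRBM3. The authors aligned reads to hg19/GRCh37 with STAR 2.5.2a, used Picard to mark duplicates, and made the gene counts with featureCounts. The deposited counts are whole numbers without any normalization. For the strand setting, the annotation release and the handling of duplicates, the sources used here give nothing. Symbols and GRCh37 positions came from GENCODE (55665 rows matched).

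Counts were filtered with filterByExpr (minimum count 10), scaled by TMM and fitted without covariates by the quasi-likelihood method of edgeR 4.0.16, with Benjamini-Hochberg adjustment over 15099 genes. The alternatives were limma-voom (limma 3.58.1), DESeq2 1.42.0, RLE factors, library size only, other filters, each library left out and a replicate block. After the data were seen, the newer edgeR test and canonical transcript lengths were added. R 4.3.3 and Python 3.11.15 were used, and the steps were tested on simulated data. No set test was run.

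The members and lists were chosen with earlier results of these data known. Named were EIF4E, EIF4G1 and EEF2, in each role group the gene with the smallest p and that with the highest RPKM, every gene called by edgeR or DESeq2 or at p under 0.05 without overlap, and in each surrounding list the gene with the smallest p. Others are named to complete a complex or family.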

Additional observations from a re-analysis of the deposited data

How the results depend on the processing

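Over the 23 translation factors named by the rule, 310 of 322 alternative values kept their direction and side of the threshold, 8 changed sign and 4 newly passed it. Sign changes were those of EIF4E with limma-voom (0.033), with no filter on low counts (0.0074) and in 4 fits without 1 library (overall -0.16 to 0.15), and of EIF5A (-0.11 to 0.011 without 1 library). EIF4EBP2 passed with DESeq2, no filter and the block, and EIF5AL1 with no filter. The RBM3 log2 fold change passed the threshold with DESeq2 (-2.14), with no filter (-2.13) and with the replicate block (-2.57), and ranged from -2.40 to -1.96 without 1 library. Against 0 called factors, DESeq2 called 1, no filter 2 and an FDR below 0.1 without a fold threshold 1. The 3 higher factors at an unadjusted p under 0.05 became 1 with library size only, 7 with no filter and 1 to 4 without 1 library, and the 6 lower ones 2 to 10. Groups without overlap went from 5 to between 6 and 15 higher and from 8 to between 8 and 16 lower, since fewer libraries overlap less. The highest counts came without control replicate 1. For these settings the shares over all tested genes were not computed, so the counts are not read as a result about the factors. The median level was 21.1 RPKM, 39.9 with canonical lengths and 132 as CPM.

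Both groups have a replicate 3 and a replicate 5, but no label says that a number marks a shared batch. Deviations from the group means correlated at 0.53 between the libraries numbered 3 and at 0.088 between those numbered 5. For differently numbered libraries the correlations ran from -0.36 to 0.20. The replicate block, which rests on the shared numbers 3 and 5, gave 1 called factor and, among the surrounding genes, called TRMT6 (-0.60). At an unadjusted p under 0.05 it found 5 factors higher and 12 lower, with an RBM3 log2 fold change of -2.57 and an EIF5A value of 0.020. The share of all tested genes at that p was not computed under the block, so these counts are not read as a result about the factors. Counts were lowest for EIF3C, EEF1AKMT1 and EIF5AL1, which limits their precision. The cause of a change was not tested.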
